A study of Mus musculus with 44 samples.

Results

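Rosiglitazone-treated wild-type (WT) macrophages (MFs) were compared with untreated Pparg knockout (KO) MFs, both sorted as Ly6C- F4/80high cells from regenerating mouse muscle at day 2. The comparison sets a ligand-exposed receptor against loss of that receptor, with no untreated WT array on either side. It used every array whose title gives rosiglitazone, WT, Ly6C- and day 2 (n = 3), and every array whose title gives no treatment, KO, Ly6C- and day 2 (n = 5). These are 8 of the 44 arrays in the series, and all 19938 genes with a probe set of their own were read.

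PPARgamma, the protein made from Pparg, is a nuclear receptor that pairs with RXR on DNA, binds fatty acids and their derivatives, and switches on genes of lipid uptake and storage. Rosiglitazone is a synthetic ligand of PPARgamma. In injured muscle, inflammatory Ly6C+ MFs are followed by Ly6C- MFs, which are linked with repair, and PPARgamma in myeloid cells is known as a regulator of lipid handling and as a brake on inflammatory genes.

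The rosiglitazone arrays came from C57B6/J mice, and the KO arrays from C57B6/J mice that were PPARg fl/fl and LysM Cre+. Cardiotoxin was injected into the tibialis anterior muscle of both, CD45+ cells were taken with magnetic beads, and the MFs were sorted with antibodies. The LysM promoter drives Cre in monocytes, MFs and neutrophils, so deletion is directed at myeloid cells and is not shown cell by cell. The labels call the arrays biological replicates, the series' design text speaks of muscles from 3 animals without tying animals to arrays, and neither gives a dose or route of rosiglitazone or an age. The p-values therefore measure only the spread between arrays, which was estimated over all 44 arrays of the series and not from the compared arrays alone. The groups differ in drug, in the Pparg allele and in the Cre insertion at once, and these cannot be told apart in this comparison. Untreated WT Ly6C- arrays of day 2 (n = 6) are therefore given beside single genes, with rosiglitazone and KO each set against the same WT arrays, so these comparisons share arrays with each other and with the one described. Rosiglitazone minus WT passed the test in 7 genes (0.0351% of all), 3 higher (0.015%) and 4 lower (0.0201%). KO minus WT passed in 40 genes (0.201%), 17 higher (0.0853%) and 23 lower (0.115%).

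Sorted identity was checked first. The 14 measured genes of MF identity and maturation averaged 11.36 to 11.40 on the log2 scale in the 3 rosiglitazone arrays and 11.17 to 11.37 in the 5 KO arrays. Adgre1, which encodes the MF surface antigen used in the sort, differed by 0.01 between the groups (adjusted p = 0.99). Of these 14 genes, Lyz2 passed as higher, by 3.37, and this lifts the rosiglitazone averages above. The median difference of the 14 was -0.01, with 6 positive and 8 negative. In 3 of them (Csf1r, Cx3cr1 and Cd14) every rosiglitazone array was below every KO array without passing. Ly6C, the other sort antigen, was read by 2 probe sets that do not tell Ly6c1 from Ly6c2. The dimmer one read 8.61 to 8.84 (median 8.65) in rosiglitazone Ly6C- arrays and 8.87 to 9.55 (median 9.43) in KO Ly6C- arrays, with no overlap. The brighter one read 9.06 to 9.29 (median 9.07) in rosiglitazone arrays and 9.13 to 9.98 (median 9.86) in KO arrays, with overlap. Both were lower with rosiglitazone by their medians, and Ly6C+ arrays of both groups lay far above, at 11.83 to 12.31. Each of the 11 marker lists of other cells averaged at most 7.38 in each of the 8 arrays, and 1 of their members passed the test, Cd83, which MFs also express. Array medians lay between 6.64 and 6.74.

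Pparg itself did not separate the groups. Its probe set read 10.33, 10.37 and 10.22 in rosiglitazone arrays and 10.45, 10.49, 10.10, 10.27 and 10.62 in KO arrays, a difference of -0.08 ± 0.15 (SE, adjusted p = 0.91). All 3 rosiglitazone values fell inside the KO range. Which exons the probe set reads is not given in the sources used here, so its level does not check the genotype labels.

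Lysozyme genes did separate them. Lyz2, the lysozyme of MFs and the locus that carries Cre in LysM Cre mice, read 13.19, 12.98 and 12.86 in rosiglitazone arrays and 9.65, 9.64, 9.43, 9.53 and 9.93 in KO arrays, a 10.3-fold difference (log2 3.37 ± 0.77, SE, adjusted p = 0.026). Lyz1, its neighbour and a close copy whose probe set may read both, ran the other way, with 10.05, 10.48 and 10.44 in rosiglitazone arrays and 12.52, 12.46, 12.49, 12.29 and 12.57 in KO arrays (log2 -2.14 ± 0.365, adjusted p = 9.1e-04). The groups did not overlap in either gene. Untreated WT replicates 4 to 6 read Lyz2 at 12.96, 12.79 and 12.84, near the rosiglitazone arrays, while untreated WT replicates 1 to 3 read 9.14, 9.11 and 9.29, near the KO arrays despite their WT label. Lyz1 was reversed, at 12.10, 12.22 and 12.04 in WT replicates 1 to 3 and 10.68, 10.34 and 10.75 in WT replicates 4 to 6. All groups share 1 estimate of the spread, which includes this split, and with the 2 WT sets given a mean each Lyz2 passed too. Without rosiglitazone replicate 1 or 2, or KO replicate 1, 3 or 4, Lyz2 lost its call, while its difference lay between 3.28 and 3.45 whichever array was left out.

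Over all genes, 92 of 19938 passed the test (0.461%), defined as an adjusted p below 0.05. Of these, 30 were higher with rosiglitazone than in KO (0.15%) and 62 were lower (0.311%). An unadjusted p below 0.05 was reached by 1868 genes, 913 higher and 955 lower. The median difference over all genes was 0.03. Among the genes that passed, 7 differed by more than 1 upward and 20 by more than 1 downward on the log2 scale. In 86 of the 92 genes the groups did not overlap, where 3.6% of all genes had every rosiglitazone array above every KO array and 3.95% had every one below. In sorted bulk RNA, fewer cells of a type and less RNA per cell cannot be told apart.

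**Figure D1:**
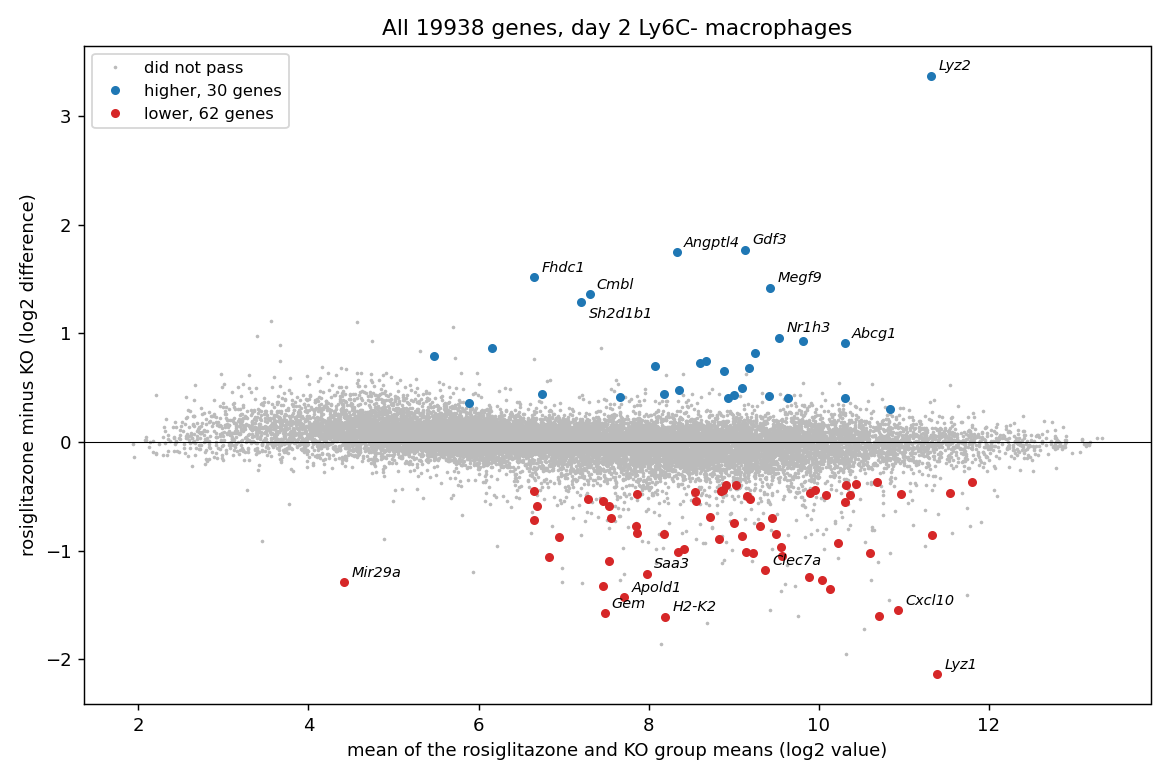
Each point is 1 of 19938 genes in day 2 Ly6C- MFs, with the mean of the 2 group means on the x axis (log2 value) and rosiglitazone minus KO on the y axis (log2 difference). The 30 genes that passed as higher (blue) and the 62 that passed as lower (red) lie mostly above a mean level of 6.70, the median of all probe sets, and Lyz2 stands furthest up at 3.37.

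Lower calls outnumbered higher ones under each scaling, but the split moved. With each array centred on its median, 119 genes passed, 24 higher and 95 lower, and after quantile normalization 88 passed, 34 higher and 54 lower. Lower calls did not outnumber higher ones in every fit. With only the 14 day 2 Ly6C- arrays, 14 higher and 12 lower genes passed. In the fit without rosiglitazone replicate 1, 18 higher and 9 lower genes passed. The 3 rosiglitazone arrays also differed among themselves. Replicate 1 had 89 genes more than 1 away from the mean of the other rosiglitazone arrays, replicate 2 had 5 and replicate 3 had 115, against 1 to 16 in the KO arrays. The standard deviation was larger in rosiglitazone than in KO arrays in 70 of the 92 genes that passed and in 12535 of all 19938. The shared estimate of the spread does not carry this inequality. In 50 of the 62 lower genes replicate 3 had the highest of the 3 rosiglitazone values (80.6%, against 28.4% of all genes), and in 52 replicate 1 had the lowest (83.9%, against 33.6%). In 23 of the 30 higher genes replicate 3 was the lowest (76.7%, against 27.7%). Replicate 3 lay nearest to KO in most of the genes that passed, in both directions.

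Of the 92 genes, 18 passed whichever of the 8 arrays was left out, 11 higher and 7 lower. The higher ones were Gdf3, Angptl4, Fhdc1, Megf9, Cmbl, Nr1h3, Sort1, Lrrc39, Nav2, Slco2b1 and Alox5. The lower ones were Lyz1, Apold1, Saa3, Clec7a, H2-Q4, Cdkn1b and Plxnd1. Without rosiglitazone replicate 1, 53 of the 62 lower and 15 of the 30 higher genes lost their call. Without replicate 2, 47 lower and 18 higher genes lost it, while without replicate 3 all 92 still passed among 327.

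Gdf3, a secreted factor of the TGF-beta family, had the largest rise after Lyz2. It read 10.12, 9.98 and 9.96 in rosiglitazone arrays and 8.44, 8.23, 8.06, 8.27 and 8.25 in KO arrays, a 3.41-fold difference (log2 1.77 ± 0.14, SE, adjusted p = 1.2e-11). The lowest rosiglitazone array stood well above the highest KO array, and leaving out any array kept the difference between 1.72 and 1.82. Untreated WT arrays lay between, from 8.96 to 9.74. Set against those WT arrays, rosiglitazone differed by 0.55 (adjusted p = 0.12) and KO by -1.22 (adjusted p = 4.0e-09). The rosiglitazone value depended on the WT set, at 0.68 against WT replicates 1 to 3 (adjusted p = 0.0021) and 0.42 against WT replicates 4 to 6 (adjusted p = 0.999), while KO passed against both, at -1.09 and -1.35. Gdf3 was the 1 call among 19 measured growth and repair factors, where 0.15% of all genes passed as higher. The median difference of these factors was -0.09. Igf1, the insulin-like growth factor, differed by -0.04 (adjusted p = 0.97), and Vegfa, an angiogenic factor, by -1.27 (adjusted p = 0.24).

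Angptl4, a secreted inhibitor of lipoprotein lipase and a PPAR target, showed the opposite split. Its values were 9.76, 9.42 and 8.44 in rosiglitazone arrays and 7.57, 7.14, 8.19, 7.46 and 6.91 in KO arrays (3.36-fold, log2 1.75 ± 0.21, adjusted p = 3.6e-07). Rosiglitazone replicate 3 lay close to KO replicate 3, though the groups did not overlap. Untreated WT arrays ranged from 7.54 to 7.93, inside the KO range. Rosiglitazone differed from WT by 1.42 (adjusted p = 8.1e-05) and KO by -0.33 (adjusted p = 0.53).

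The other PPAR targets of lipid uptake and binding did not pass. Of 12 measured, Angptl4 alone passed, where 0.15% of all genes passed as higher. The median difference was 0.10 against 0.03 over all genes. Fabp4, a fatty acid-binding protein, read 10.80, 10.623 and 10.70 in rosiglitazone arrays and 10.45, 10.616, 10.11, 10.30 and 10.55 in KO arrays (log2 0.30, adjusted p = 0.66). Cd36, a fatty acid and scavenger receptor, read 12.62, 12.49 and 12.47 against 12.23, 12.34, 12.26, 12.21 and 12.40 in KO, with no overlap but a difference of 0.24 (adjusted p = 0.69). Plin2, which coats lipid droplets, read 12.96, 12.93 and 12.93 against 12.74, 12.75, 12.89, 12.82 and 12.83 in KO (log2 0.14, adjusted p = 0.70). In Fabp4, Cd36 and Plin2 every rosiglitazone array was above every KO array by a narrow margin, and none of these differences passed. Of the 12 genes of lipid uptake and binding, 5 had every rosiglitazone array above every KO array, where 3.6% of all genes did.

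No member passed among 19 genes of lipid storage and lipolysis (median 0.05), where Hilpda, a hypoxia-induced droplet protein, differed by -0.85 (adjusted p = 0.51) and Pnpla2, the triglyceride lipase, by 0.26 (adjusted p = 0.28). None passed among 25 genes of fatty acid oxidation (median 0.05), where the peroxisomal protein gene Pex11a differed by 0.53 (adjusted p = 0.25) and Ech1, an enzyme of unsaturated fatty acid oxidation, by 0.45 (adjusted p = 0.20). None passed among 15 PPAR and RXR receptors, coactivators and corepressors (median 0.00), where Ppard, the sister receptor, differed by -0.28 (adjusted p = 0.26) and Ncoa1, a coactivator, by -0.13 (adjusted p = 0.67).

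The 12 measured LXR and cholesterol export genes gave 3 calls, all higher, where 0.15% of all genes passed as higher. Nr1h3 encodes LXRalpha, the oxysterol receptor that switches on cholesterol export in MFs, and it read 10.28, 10.08 and 9.68 in rosiglitazone arrays and 9.29, 9.04, 8.98, 9.02 and 8.92 in KO arrays (1.95-fold, log2 0.96 ± 0.13, adjusted p = 5.4e-06). Abcg1, a sterol transporter and LXR target, read 11.04, 10.76 and 10.48 in rosiglitazone arrays and 10.05, 9.93, 9.88, 9.98 and 9.42 in KO arrays (log2 0.91 ± 0.19, adjusted p = 0.015). Lpcat3, which remodels membrane phospholipids, differed by 0.41 (adjusted p = 0.024). The groups did not overlap in any of the 3 genes. Untreated WT arrays split in Abcg1, at 10.70, 10.555 and 10.57 in replicates 1 to 3 and 10.36, 9.90 and 9.80 in replicates 4 to 6. Abcg1 with rosiglitazone differed by 0.15 from the first set (adjusted p = 0.60) and by 0.74 from the second (adjusted p = 0.056). In KO it differed by -0.75 from the first (adjusted p = 1.8e-04) and by -0.17 from the second, which did not pass. The other 9 of the 12 measured LXR genes did not pass, and their list had a median of 0.04. Abca1, the other main cholesterol exporter, differed by -0.22 (adjusted p = 0.75), and Apoe by -0.02 (adjusted p = 0.98). Abcg1 and Lpcat3 lost their calls without rosiglitazone replicate 1 or 2 or KO replicate 5, with differences of at least 0.77 and 0.35.

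**Figure D2:**
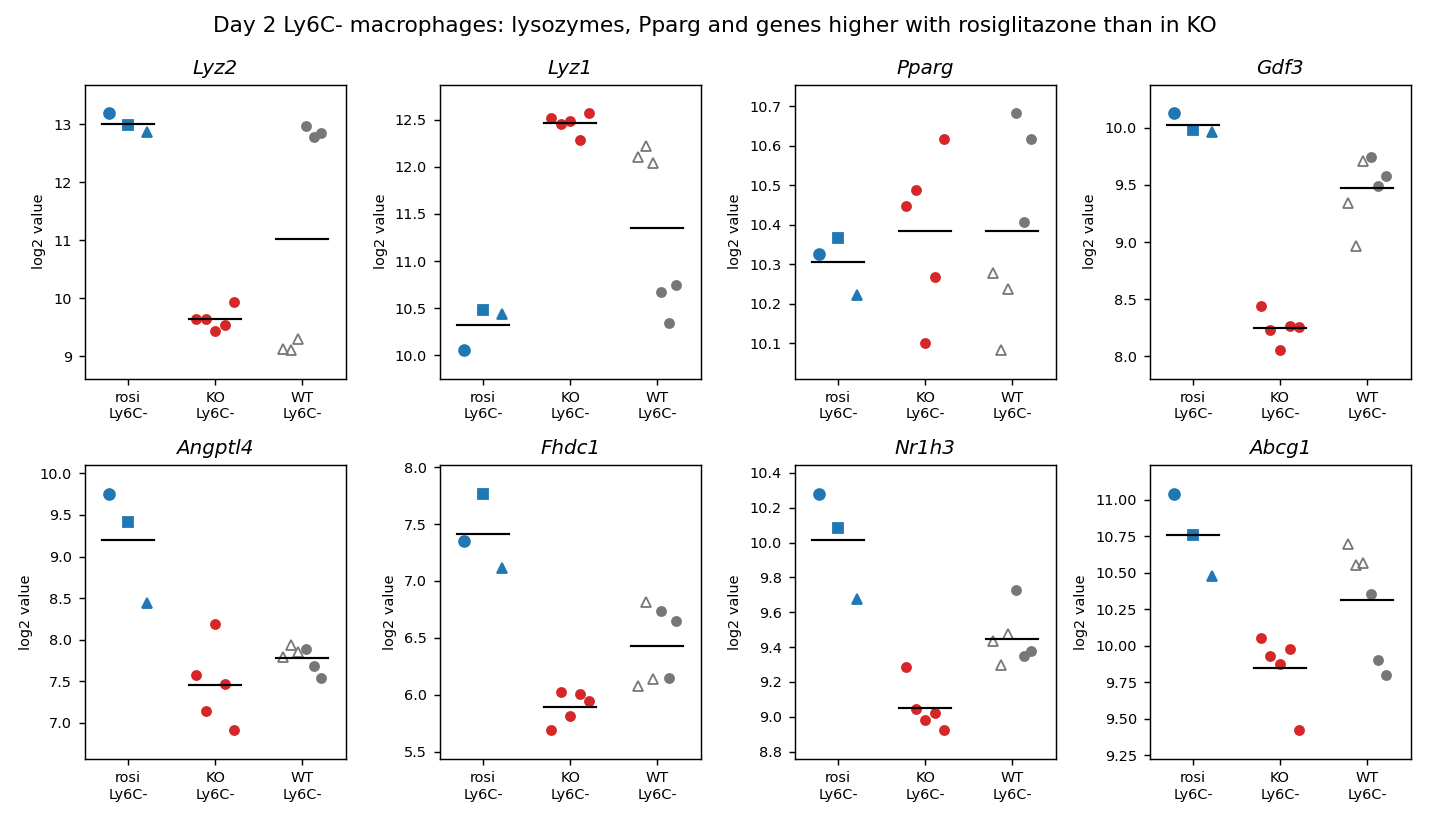
Per-array log2 values of 8 genes in day 2 Ly6C- arrays of rosiglitazone-treated WT (blue; circle, square and triangle for replicates 1 to 3), untreated KO (red) and untreated WT (grey; open triangles for replicates 1 to 3, filled circles for replicates 4 to 6), with black bars for group means. Gdf3 in KO lies below both other groups, Angptl4 with rosiglitazone lies above both, and the WT arrays split in Lyz2 and Lyz1 and, less widely, in Abcg1.

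Several less familiar genes rose as clearly. Fhdc1, a formin-family protein of actin and microtubules, read 7.35, 7.77 and 7.11 in rosiglitazone arrays and 5.69, 6.02, 5.81, 6.01 and 5.95 in KO arrays (2.86-fold, log2 1.52 ± 0.14, adjusted p = 1.5e-09). Megf9, a membrane protein with EGF-like repeats, read 10.18, 10.22 and 10.02 against 8.57, 8.72, 9.09, 8.57 and 8.64 in KO (log2 1.42 ± 0.16, adjusted p = 9.2e-08). Cmbl, a hydrolase, read 8.04, 8.07 and 7.85 against 6.95, 6.76, 6.47, 6.30 and 6.64 in KO (log2 1.36 ± 0.14, adjusted p = 2.7e-08). In all 3 genes the lowest rosiglitazone value was above the highest KO value by a margin wider than the spread of either group.

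Their positions relative to untreated WT differed. Cmbl with rosiglitazone was 0.20 above WT (adjusted p = 0.69) and in KO 1.16 below it (adjusted p = 2.7e-08). Megf9 was 0.63 above WT with rosiglitazone (adjusted p = 0.12) and 0.79 below it in KO (adjusted p = 5.5e-04). Split by WT set, Megf9 with rosiglitazone differed by 0.82 from WT replicates 1 to 3 (adjusted p = 2.5e-04) and by 0.43 from WT replicates 4 to 6 (adjusted p = 0.999). Fhdc1 passed on both sides, at 0.98 with rosiglitazone (adjusted p = 8.1e-05) and -0.53 in KO (adjusted p = 0.035), though KO against WT replicates 4 to 6 alone missed the threshold (-0.62, adjusted p = 0.0501). Lrrc39, a leucine-rich repeat gene known from muscle, also passed on both sides, at 0.52 (adjusted p = 8.1e-05) and -0.35 (adjusted p = 0.0022), and its rosiglitazone minus KO difference was 0.86 ± 0.07 (adjusted p = 2.3e-10). Both genes are dim, with Lrrc39 at 6.72, 6.45 and 6.59 in rosiglitazone arrays and 5.61 to 5.80 in KO arrays.

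The remaining named rises were smaller. Sort1, the sorting receptor sortilin, rose by 0.93 ± 0.15 (adjusted p = 2.8e-04), Nav2, a cytoskeletal protein, by 0.82 ± 0.13 (adjusted p = 3.4e-04), and Slco2b1, an organic anion transporter, by 0.72 ± 0.12 (adjusted p = 9.1e-04). Sh2d1b1, an adaptor of SLAM-family receptors with a close paralog, rose by 1.29 ± 0.25 (adjusted p = 0.0055). Aspa, which cleaves N-acetylaspartate, rose by 0.80 ± 0.155 (adjusted p = 0.0063), and Shtn1, an actin-linked protein, by 0.74 ± 0.17 (adjusted p = 0.027). Aspa read 5.53 to 6.15 in rosiglitazone arrays and 4.86 to 5.25 in KO arrays. Its untreated WT arrays split, at 6.01 to 6.20 in replicates 1 to 3 and 5.29 to 5.42 in replicates 4 to 6. Sh2d1b1 and Aspa lost their calls without rosiglitazone replicate 2, and Shtn1 without either replicate 1 or 2 and without KO replicate 1, 3 or 4. Psat1, an enzyme of serine synthesis, rose by 0.43 (adjusted p = 0.025). It was the 1 call among 18 genes of the ATF4 and unfolded protein response, where 0.15% of all genes passed as higher. Psat1 lost its call without rosiglitazone replicate 2 or any KO array but replicate 2.

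Among falls, Clec7a was the most firmly measured. It encodes dectin-1, the receptor for fungal beta-glucan, and read 8.49, 8.74 and 9.10 in rosiglitazone arrays and 10.15, 9.79, 10.05, 9.77 and 10.04 in KO arrays (2.27-fold lower, log2 -1.18 ± 0.12, adjusted p = 3.7e-09). It lay on both sides of untreated WT, with rosiglitazone at -0.58 (adjusted p = 0.023) and KO at 0.60 (adjusted p = 2.9e-04). Against WT replicates 4 to 6 alone, Clec7a with rosiglitazone differed by -0.54 and did not pass (adjusted p = 0.38). Apold1, known from endothelial cells, read 7.21, 6.75 and 7.03 against 8.58, 8.15, 8.54, 8.30 and 8.56 in KO (log2 -1.43 ± 0.16, adjusted p = 2.0e-07). Saa3, an acute-phase protein that MFs make, read 7.06, 7.43 and 7.63 against 8.74, 8.81, 8.05, 8.59 and 8.73 in KO (log2 -1.21 ± 0.21, adjusted p = 9.1e-04). For Apold1 and Saa3 the gap came from KO, at 1.30 and 1.34 above WT (adjusted p = 3.7e-08 and 6.2e-06), whereas rosiglitazone differed from WT by -0.13 and 0.13 (adjusted p = 0.86 and 0.89).

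Several of the 15 largest falls differed widely among the rosiglitazone arrays. Cxcl10, a chemokine that draws T cells, read 9.33, 9.76 and 11.39 in rosiglitazone arrays and 11.71, 11.49, 11.69, 11.64 and 12.01 in KO arrays (2.93-fold lower, log2 -1.55 ± 0.33, adjusted p = 0.014). Egr2, an immediate early transcription factor, read 8.55, 9.26 and 10.39 against 10.58, 10.54, 10.67, 10.59 and 10.96 in KO (log2 -1.27 ± 0.265, adjusted p = 0.013). Cd83, an activation marker, read 8.87, 9.59 and 11.25 against 11.44, 11.32, 11.64, 11.42 and 11.73 in KO (log2 -1.61 ± 0.39, adjusted p = 0.0455). In each, replicates 1 and 2 were far below KO and replicate 3 lay just beneath the KO range. Both Ly6C probe sets had lower medians with rosiglitazone than in KO as well, and their part in these falls was not tested.

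The same order of arrays held in Gem, a small GTPase induced by activation, with 5.91, 6.34 and 7.83 in rosiglitazone arrays and 8.33, 8.01, 8.12, 8.01 and 8.89 in KO arrays (log2 -1.58 ± 0.35, adjusted p = 0.022). It also held in Csrnp1, a nuclear protein induced by AXIN1, with 8.50, 9.08 and 10.21 against 10.42, 10.55, 10.56, 10.52 and 10.49 in KO (log2 -1.24 ± 0.29, adjusted p = 0.027). Mxd1, an antagonist of MYC, overlapped KO, with 8.52, 9.14 and 10.71 against 10.64, 10.33, 10.99, 10.69 and 11.40 in KO (log2 -1.36 ± 0.32, adjusted p = 0.038). Id3, an inhibitor of helix-loop-helix factors, overlapped too, with 6.11, 6.54 and 7.77 against 8.15, 7.69, 8.28, 8.26 and 8.27 in KO (log2 -1.32 ± 0.28, adjusted p = 0.015). All 7 of these genes lost their call without rosiglitazone replicate 1 and without replicate 2, and Cd83 and Csrnp1 also without any of the KO arrays, Mxd1 without any but KO replicate 2, and Gem without KO replicate 1 or 5. Their differences without replicate 1 came to between -0.84 and -1.19.

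Untreated WT arrays also spread in these genes. WT replicate 4 read 9.98 for Cxcl10, 9.45 for Egr2 and 9.25 for Cd83, while WT replicates 5 and 6 read 11.66 and 12.28, 10.51 and 10.61, and 11.29 and 11.24. WT replicate 4 was the lowest of WT replicates 4 to 6 in 42 of the 62 lower genes (67.7%, against 26.7% of all genes). This spread appeared in single arrays of both groups of WT mice, and its part in the result was not tested beyond leaving out arrays.

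**Figure D3:**
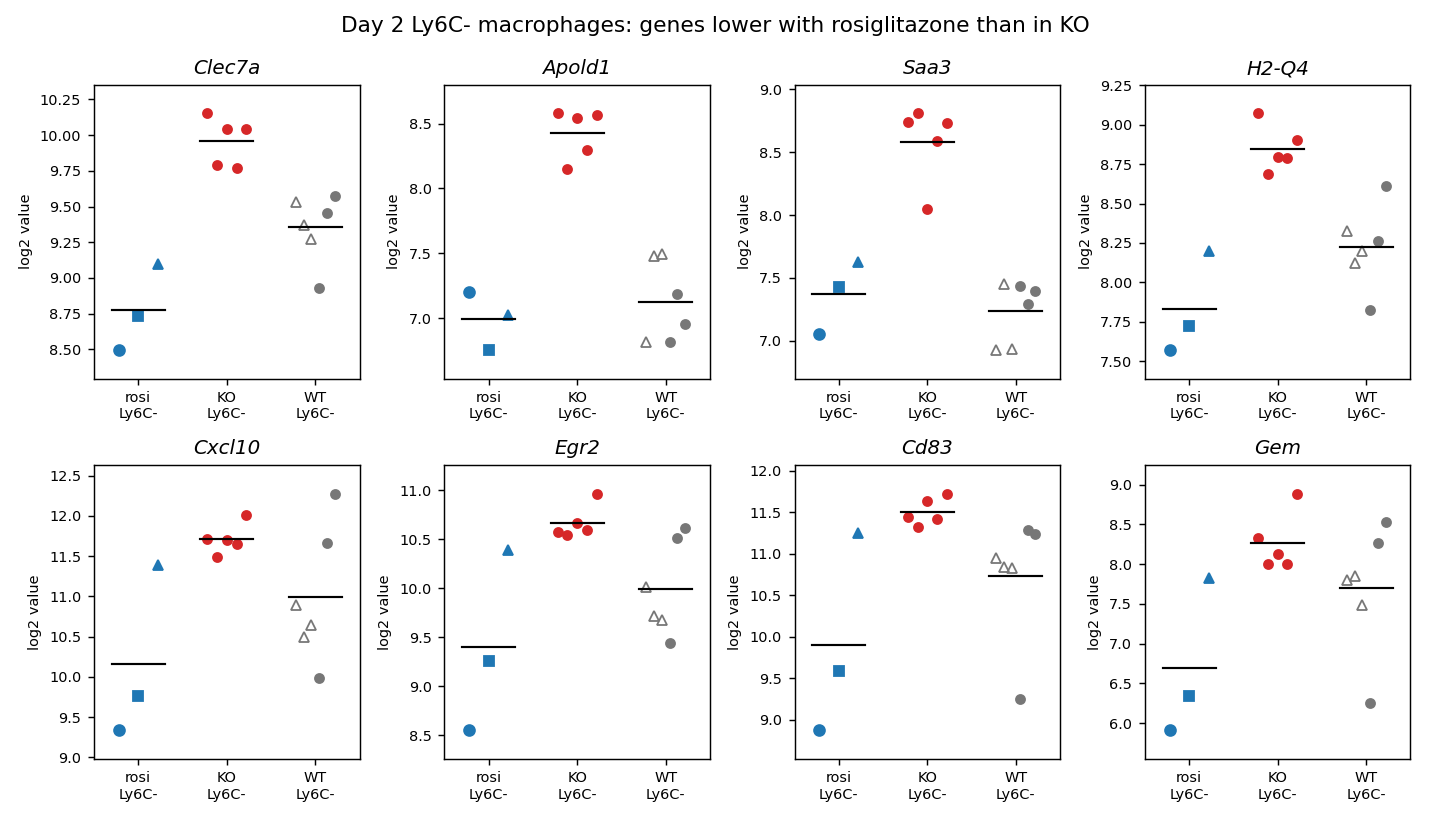
Per-array log2 values of 8 genes lower with rosiglitazone than in KO, with groups and symbols as in the plot of lysozymes and rises. Clec7a, Apold1, Saa3 and H2-Q4 (upper row) passed whichever array was left out, while in Cxcl10, Egr2, Cd83 and Gem (lower row) rosiglitazone replicate 3 (blue triangle) lies just under the KO arrays.

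None of 19 inflammatory cytokine genes passed. Of these, 17 had a negative difference, where 8171 of all 19938 genes did, 9 were lower at an unadjusted p below 0.05, where 955 of all genes were, and the list's median was -0.49 against 0.03 over all genes. Il1b, the interleukin-1beta gene, differed by -1.96 (adjusted p = 0.069), Tnfsf9, a T cell costimulator, by -1.60 (adjusted p = 0.20), Lif, a cytokine of the IL-6 family, by -1.29 (adjusted p = 0.064) and Il1rn, the interleukin-1 receptor antagonist, by -1.10 (adjusted p = 0.051). Il1b read 7.85, 8.90 and 11.28 in rosiglitazone arrays and 10.60 to 11.85 in KO arrays. Tnfsf9 read 7.63, 8.74 and 10.48 against 10.28 to 10.95 in KO. In both genes rosiglitazone replicate 3 lay inside the KO range. Averaged over the list, the 3 rosiglitazone arrays ran from 7.02 to 8.08 and the KO arrays from 7.91 to 8.47, so the groups overlapped. Among 22 chemokines 1 passed as lower, Cxcl10, where 0.311% of all genes did, and 18 were negative (median -0.23). The 22 interferon-response genes gave no call, with 19 negative and a median of -0.12, and Rsad2, an antiviral enzyme, differed by -0.57 (adjusted p = 0.20).

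Immediate early and heat-shock genes gave 2 falls among 19, Egr2 and Ier3, where 0.311% of all genes passed as lower. The list's median was -0.23. Ier3, an early response gene of cell survival, fell by 1.05 (adjusted p = 0.022), at 8.39, 8.74 and 10.01 in rosiglitazone arrays and 9.98 to 10.17 in KO arrays. Rosiglitazone replicate 3 was inside the KO range, and Ier3 lost its call without rosiglitazone replicate 1 or 2 or KO replicate 1 or 5. Nr4a3, an orphan nuclear receptor, differed by -1.86 (adjusted p = 0.21) and Hspa1a, a heat-shock protein, by -1.72 (adjusted p = 0.29), while Fos and Jun differed by 0.23 and -0.04. The list averaged 9.49 to 10.29 in rosiglitazone arrays and 10.29 to 10.39 in KO arrays. Such genes are known to respond to tissue handling as well as to stimuli, and their part in the falls was not tested.

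Of the 12 measured class II and costimulation genes, Cd86 and Cd40 passed as lower, where 0.311% of all genes did. Among class I genes, which were not counted as a list, H2-Q4 and H2-K2 passed as lower. Cd86, a ligand of CD28 on T cells, read 7.80, 8.80 and 9.31 in rosiglitazone arrays and 9.60 to 9.71 in KO arrays (log2 -1.01, adjusted p = 0.0080), and Cd40, the receptor of CD40 ligand, differed by -0.53 (adjusted p = 0.043). The class II genes of the same 12-gene list, such as Cd74, the invariant chain (0.20, adjusted p = 0.55), did not pass. H2-Q4 read 7.57, 7.72 and 8.20 in rosiglitazone arrays and 9.07, 8.69, 8.79, 8.79 and 8.90 in KO arrays (log2 -1.02 ± 0.15, adjusted p = 5.6e-05), with no overlap. H2-K2 read 6.78, 6.82 and 8.56 against 8.93, 8.84, 8.98, 8.95 and 9.29 in KO (log2 -1.61 ± 0.33, adjusted p = 0.0090). Both are class I genes with near-identical relatives, so their probe sets may read several genes. H2-K2 lost its call without rosiglitazone replicate 1 or 2, Cd86 without replicate 1, and Cd40 without any array other than rosiglitazone replicate 3.

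Iron and matrix genes gave a few calls, all lower, where 0.311% of all genes passed as lower. Slc40a1, the iron exporter ferroportin, read 6.06, 6.14 and 6.69 in rosiglitazone arrays and 7.35, 6.70, 7.26, 6.98 and 6.77 in KO arrays (log2 -0.71, adjusted p = 0.022), where KO stood 1.00 above untreated WT (adjusted p = 1.1e-05) and rosiglitazone 0.29 above it (adjusted p = 0.56). Slc11a2, an iron importer, differed by -0.78 (adjusted p = 0.031), and the other 12 of 14 iron and heme genes did not pass, with Hmox1, heme oxygenase, at -0.01 (adjusted p = 0.99). Mmp12, the MF elastase, was the 1 call among 17 matrix genes, at -0.70 (adjusted p = 0.045). Slc40a1, Slc11a2 and Mmp12 lost their calls without rosiglitazone replicate 1 or 2, and also without KO replicate 1 and at least 1 other KO array. Of 18 alternative activation genes, Clec7a and Egr2 passed, both lower, against the same share of all genes. Egr2 is also counted among the immediate early genes. Arg1, arginase, differed by -0.25 (adjusted p = 0.78) and Mrc1, the mannose receptor, by -0.13 (adjusted p = 0.75).

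Ahr, Hcar2 and Mir29a complete the 15 largest falls. Ahr, the aryl hydrocarbon receptor, read 6.33, 6.92 and 7.72 in rosiglitazone arrays and 7.90, 7.92, 8.13, 8.11 and 8.37 in KO arrays (log2 -1.10 ± 0.26, adjusted p = 0.039). Its untreated WT arrays split, with 8.91 to 8.99 in replicates 1 to 3 and 6.93, 7.72 and 8.08 in replicates 4 to 6. Ahr with rosiglitazone differed by -1.95 from WT replicates 1 to 3 (adjusted p = 1.9e-08) and by -0.59 from WT replicates 4 to 6 (adjusted p = 0.999). In KO it differed by -0.85 from the first set (adjusted p = 0.0017) and by 0.51 from the second (adjusted p = 1.00). Hcar2, the niacin receptor, read 6.18, 5.90 and 6.80 against 7.45, 7.45, 7.31, 7.25 and 7.30 in KO (log2 -1.06 ± 0.24, adjusted p = 0.027). Both lost their calls without rosiglitazone replicate 1 or 2. Ahr also lost it without any KO array, and Hcar2 without any but KO replicate 4.

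Mir29a was the dimmest of the named genes, at 3.66, 3.65 and 4.01 in rosiglitazone arrays and 5.17, 5.05, 4.98, 4.60 and 5.50 in KO arrays (log2 -1.29 ± 0.26, adjusted p = 0.0090). The groups did not overlap, and both means lay below the median of all probe sets, as in 4 of the 92 genes. Its call was lost without rosiglitazone replicate 1 or 2. The probe set is assigned to the gene of this miRNA and does not tell its mature arms apart. The arms are shown for their seeds (bases 2 to 8, in capitals), by which miRNAs bind targets, from RefSeq GRCm38.p6 on chromosome 6, minus strand, at chr6:31062673-31062694 and chr6:31062711-31062732.
mmu-miR-29a-3p: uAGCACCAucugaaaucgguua
mmu-miR-29a-5p: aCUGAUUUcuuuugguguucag

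Promoters of the genes that passed were searched for PPAR and RXR, LXR and RXR, NF-kappaB, interferon-stimulated, cyclic AMP and serum response elements. The search covered the 250 bases before each start in RefSeq GRCm38.p6. A promoter was matched for 24 of the 30 higher and 44 of the 62 lower genes, and both strands were read. The PPAR and RXR element, read as AGGNCA repeated with 1 base between the copies, occurred in 0.333% of 27025 promoters and in 0 of the 24 and 0 of the 44. The LXR and RXR element, read as AGGNCA repeated with 4 bases between the copies, occurred in 0.215% of all promoters and likewise in none of either set. The NF-kappaB site, read as GGGA and TTCC with 2 bases between, occurred in 1.17% of all promoters and in 2 of the 44 lower genes, Cxcl10 and Zscan2. The interferon-stimulated element, read as TTTC repeated with 2 bases between, occurred in 3.04% of all promoters and in 5 of the 44 lower genes, Cxcl10, Ifi205, Plk2, Saa3 and Slamf8, and in 0 of the 24 higher genes. The cyclic AMP element, TGACGTCA, occurred in 1.62% of all promoters, in 1 higher gene (Ing4) and in 2 lower genes (Plk2 and Retreg1), and the serum response element, read as CCNTA joined to TNNGG, in 1.37% of all, in 1 higher gene (Aspa) and in 0 lower genes. These counts describe letters in short windows, not binding, and enhancers were not searched.

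Cxcl10 is printed because it held both elements and had the largest fall among chemokines. Its 250 bases (chr5:92348890-92349139, minus strand) carry the interferon-stimulated match and the NF-kappaB match in capitals. The windows of Saa3 (chr7:46715782-46715811, minus strand), Ifi205 (chr1:174031870-174031899, minus strand) and Slamf8 (chr1:172590569-172590593, minus strand) show the interferon-stimulated match in capitals in genes that fell by 1.21, 0.97 and 0.78. Ifi205 has close relatives that its probe set may also read, and Ifi205 and Slamf8 lost their calls without rosiglitazone replicate 1.
Cxcl10: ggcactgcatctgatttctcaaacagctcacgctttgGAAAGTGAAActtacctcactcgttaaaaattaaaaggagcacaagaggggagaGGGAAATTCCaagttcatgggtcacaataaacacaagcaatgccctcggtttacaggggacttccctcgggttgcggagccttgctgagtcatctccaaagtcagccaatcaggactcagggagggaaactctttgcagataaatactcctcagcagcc
Saa3: gttatcttctGAAAGAGAAAttatgggtaa
Ifi205: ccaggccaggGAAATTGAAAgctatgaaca
Slamf8: cccgggatgcTTTCGCTTTCaagac

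Chromosome 6, which holds Pparg, also held more calls than any other chromosome. Of its 1101 genes, 15 passed (1.36%, against 0.461% of all genes), 4 higher and 11 lower. Among the 50 genes on each side of Pparg, 3 passed. Alox5, the leukotriene-forming lipoxygenase 14 genes away, read 8.33, 8.62 and 8.31 in rosiglitazone arrays and 7.74, 7.70, 7.77, 7.75 and 7.64 in KO arrays (log2 0.70 ± 0.12, adjusted p = 9.1e-04). Plxnd1, a semaphorin receptor 9 genes away, read 10.75, 10.77 and 10.66 against 11.24, 11.18, 11.40, 11.13 and 11.10 in KO (log2 -0.48 ± 0.09, adjusted p = 0.0014). Rassf4, a RAS-association protein 20 genes away, fell by 0.48 (adjusted p = 0.015) and lost its call without rosiglitazone replicate 1 or KO replicate 1 or 3. Against untreated WT, Alox5 in KO differed by -0.63 (adjusted p = 2.1e-04), Plxnd1 by 0.42 (adjusted p = 7.3e-04) and Rassf4 by 0.52 (adjusted p = 5.6e-04), while with rosiglitazone Alox5 differed by 0.07, Plxnd1 by -0.06 and Rassf4 by 0.03 (adjusted p = 0.91, 0.87 and 0.95). Gdf3 lies 77 genes from Pparg, Clec7a 197, Cdkn1b 258 and Apold1 259 in the order of measured genes. Alleles that travel with the floxed Pparg and loss of the receptor cannot be told apart here.

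Other lists gave no call. Among 23 lysosomal and proton pump genes (median -0.02), Atp6v0a1, a subunit of the pump that acidifies lysosomes, differed by 0.52 (adjusted p = 0.060). Among 21 efferocytosis receptors, bridges and complement C1q genes (median -0.01), Itgax, an integrin of complement receptors, differed by -0.33 (adjusted p = 0.43). Among 29 cell cycle genes (median 0.09), Ccna2, a cyclin, differed by 0.39 (adjusted p = 0.54) and Mki67, a proliferation marker, by -0.24 (adjusted p = 0.83). Glycolysis and hypoxia genes (0 of 21, median -0.13) included Slc2a1, a glucose transporter, at -0.68 (adjusted p = 0.26). Antioxidant genes (0 of 19, median -0.06) had 13 negative differences, and 5 were lower at an unadjusted p below 0.05, where 955 of all 19938 genes were. They averaged 10.07 to 10.27 in rosiglitazone arrays and 10.29 to 10.39 in KO arrays, without overlap. Sterol and fatty acid synthesis genes (0 of 22, median -0.02) and oxidative phosphorylation genes (0 of 19, median -0.03) lay near the median of all genes.

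Of 15 monocyte identity genes none passed and 11 were negative (median -0.31), beside the lower Ly6c1 and Ly6c2 probe sets. Nr4a1, a nuclear receptor needed by Ly6C-low monocytes, differed by -1.02 (adjusted p = 0.19), and Ccr2, the receptor for CCL2, by -0.54 (adjusted p = 0.064). Their mean level was 7.56 to 8.003 in rosiglitazone arrays and 8.003 to 8.13 in KO arrays. Cx3cr1, the fractalkine receptor of MFs, read 8.57, 8.68 and 8.68 in rosiglitazone arrays and 9.72, 9.14, 9.65, 9.15 and 8.83 in KO arrays, without overlap, at a difference of -0.66 (adjusted p = 0.20).

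**Figure D4:**
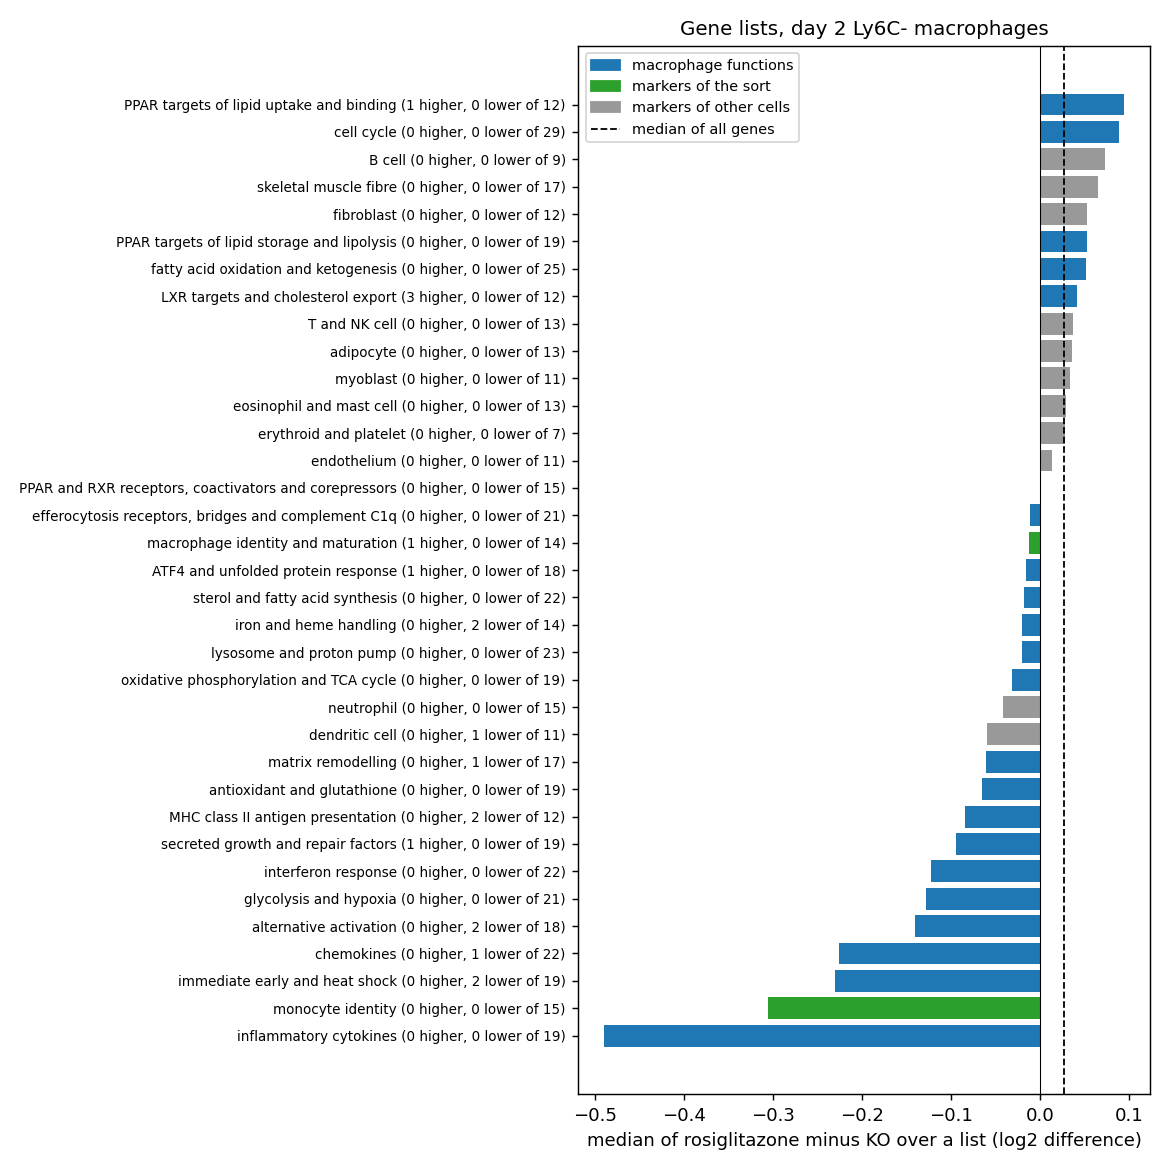
Bars give the median of rosiglitazone minus KO (log2 difference, x axis) over the measured genes of each list, with the number that passed in each direction beside the list's name, and the dashed line marks the median of all genes, 0.03. Inflammatory cytokines lie lowest at -0.49 with no member that passed, and the lists of other cells (grey) lie close to the dashed line.

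The same comparison in Ly6C+ F4/80low MFs of day 2 (3 rosiglitazone and 5 KO arrays) gave far more calls, 2316 of 19938 (11.6%), 1182 higher (5.93%) and 1134 lower (5.69%). Of the 92 Ly6C- genes, 58 also passed there (63.0% of the Ly6C- calls and 2.5% of the Ly6C+ calls), 57 of them in the same direction. Those that moved alike in both subsets included Lyz2 (3.37 in Ly6C- and 3.51 in Ly6C+), Apold1 (-1.43 in both), Sort1 (0.93 in both) and Gem (-1.58 and -1.54). A direct test of Ly6C- minus Ly6C+ MFs found 42 genes whose rosiglitazone minus KO value differed (0.211%). It was larger in Ly6C- MFs for 24 (0.12%) and smaller for 18 (0.0903%), and 8 of the 42 were among the 92. An unadjusted p below 0.05 for that difference was reached by 1809 genes. This test treats same-numbered arrays of both subsets as independent, which the labels do not settle, and with the replicate number as a block over the 16 arrays 498 genes passed, 41 of the 42 among them, so a gene that missed the threshold here may pass there.

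Nr1h3 differed most plainly between subsets among the genes of lipid metabolism. In Ly6C+ arrays it read 8.71, 8.94 and 8.94 with rosiglitazone and 9.26, 9.18, 8.95, 8.94 and 9.03 in KO, a difference of -0.21 against 0.96 in Ly6C- MFs, and the 2 differed by 1.17 ± 0.18 (adjusted p = 3.55e-04). Fhdc1 differed by -0.03 in Ly6C+ MFs and by 1.52 in Ly6C- MFs (adjusted p = 3.4e-05 for the difference). Cmbl differed by 0.26 and 1.36 (adjusted p = 0.0063), Lrrc39 by 0.14 and 0.86 (adjusted p = 2.9e-04), and Gdf3 by 0.87 and 1.77 (adjusted p = 0.032). Gdf3 passed in both subsets, at 7.97, 8.41 and 8.17 with rosiglitazone and 7.24 to 7.41 in KO in Ly6C+ arrays. Angptl4 differed by 0.58 in Ly6C+ MFs, and its difference between subsets did not pass (1.17, adjusted p = 0.072).

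Among other genes, Fabp5, Pmp22 and Hebp1 differed between subsets with the larger fall in Ly6C+ MFs. Fabp5, a fatty acid-binding protein, read 12.68, 12.48 and 12.40 with rosiglitazone and 12.50 to 12.80 in KO in Ly6C- arrays, but 9.80, 11.02 and 10.62 with rosiglitazone and 11.67 to 12.15 in KO in Ly6C+ arrays. Its differences were -0.12 and -1.44 (adjusted p = 0.0185 for the difference). Pmp22, a myelin and membrane protein, differed by -0.08 in Ly6C- and -1.40 in Ly6C+ MFs (adjusted p = 0.013). Hebp1, a heme-binding protein on chromosome 6, differed by -0.86 and -2.49 (adjusted p = 0.035). In Ly6C- arrays Hebp1 read 9.18 to 9.25 with rosiglitazone and 9.96 to 10.14 in KO, without overlap and without passing. In the other direction, Tmem176b, a membrane protein on chromosome 6, fell by 0.46 in Ly6C- MFs (adjusted p = 0.045, lost without rosiglitazone replicate 1 or 2 or KO replicate 1, 3 or 4) and rose by 0.53 in Ly6C+ MFs, and the difference passed (adjusted p = 9.4e-04). Siglece, a sialic acid-binding inhibitory receptor, differed by -0.33 and 0.94 (adjusted p = 0.0040), Mmp8, a neutrophil collagenase, by -0.41 and 0.52 (adjusted p = 0.0185), Pilrb1, an activating receptor with a close paralog, by -0.51 and 0.40 (adjusted p = 0.022), and Fam71a by 0.00 and 1.38 (adjusted p = 0.035).

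**Figure D5:**
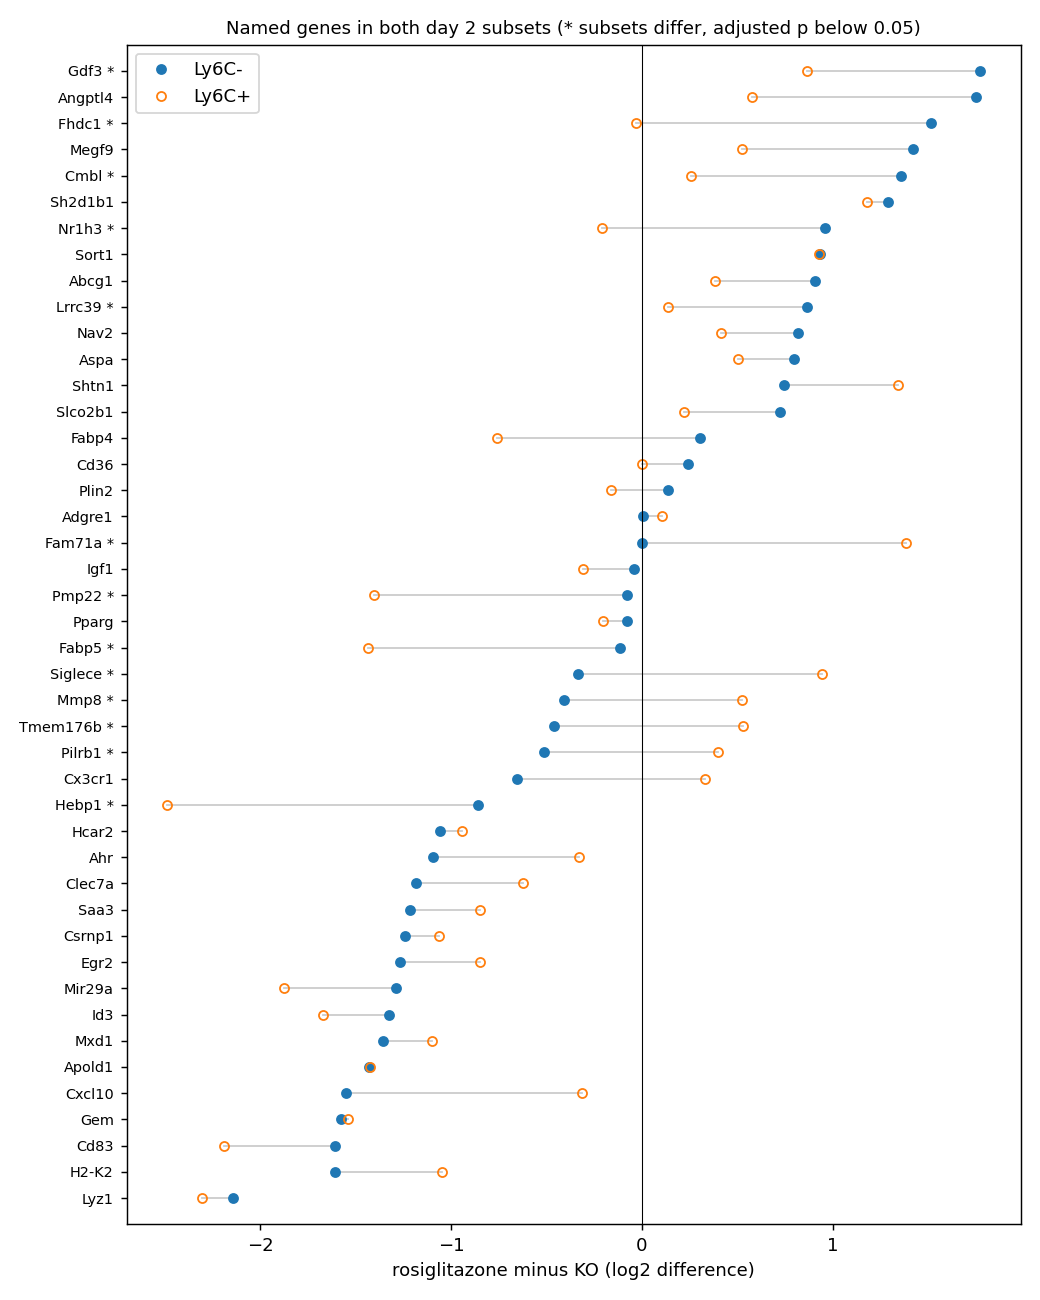
For each named gene other than Lyz2, rosiglitazone minus KO (log2 difference, x axis) is given in Ly6C- MFs (filled blue) and Ly6C+ MFs (open orange), with an asterisk where the 2 differences differed at an adjusted p below 0.05. Gdf3, Fhdc1, Cmbl, Nr1h3 and Lrrc39 were higher in Ly6C- MFs, while Apold1, Sort1 and Gem lie nearly together.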

How the data were processed

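The authors deposited RMA-summarised log2 values for 35556 probe sets on 44 one-colour Affymetrix mouse gene arrays (range 1.46 to 13.6). No source used here names the software version or the build behind the probe sets. Values were used as deposited. Each of the 19938 genes was read from its brightest probe set among the 21789 with 1 symbol in the platform annotation; 1621 with several symbols and 12146 with none were left out. limma 3.58.1 in R 4.3.3 (lmFit, eBayes; 34 residual and 6.46 prior degrees of freedom) fitted 1 mean per group over all 44 arrays, and a gene passed at a two-sided Benjamini-Hochberg adjusted p below 0.05 over all genes. SEs are moderated. The fit was run on simulated data with independent normal noise and 1 spread per gene over all groups. That setting leaves out the wider spread of the rosiglitazone arrays and the split of the WT arrays, so it cannot vouch for the calls here. The number of arrays limits the precision, and no batch, date or animal is labelled. Named genes were the 15 largest rises and falls that passed (clone-named genes left out), the 5 largest differences between subsets each way, and fixed PPAR, lysozyme and MF genes, with up to 4 passing members, or else the 2 largest differences, for each list and the passing neighbours of Pparg. Genes outside that rule, such as H2-Q4, Cdkn1b, Lif, Il1rn, Ccr2, Nr4a3, Hspa1a, Fos, Jun, Abca1, Apoe, Arg1, Mrc1, Hmox1, Cd74 and those with promoter matches, were chosen after their values were seen. The members and lists were chosen with earlier results of these data known.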

Additional observations from a re-analysis of the deposited data

Results flagged for a closer look

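A single array stood apart from its group in 3 of 45 named genes tested in the KO arrays. KO replicate 5 read Abcg1 at 9.42, below the other KO arrays. KO replicate 2 read Id3 at 7.69, and KO replicate 3 read Saa3 at 8.05, each the lowest of 5. Chance alone flags about 1 in 20 groups.

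Rosiglitazone minus KO differed between Ly6C- and Ly6C+ MFs, by the test of that difference, in 13 named genes. The Ly6C- difference exceeded the Ly6C+ one by 1.63 for Hebp1, 1.55 for Fhdc1, 1.33 for Pmp22, 1.32 for Fabp5, 1.17 for Nr1h3, 1.10 for Cmbl, 0.90 for Gdf3 and 0.73 for Lrrc39. The Ly6C- difference minus the Ly6C+ one was -1.38 for Fam71a, -1.28 for Siglece, -0.99 for Tmem176b, -0.93 for Mmp8 and -0.91 for Pilrb1.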

How the results depend on the processing

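Against 92 genes in the main design, 73 passed with only the 8 arrays (37 of them shared with the 92), 26 with only the 14 day 2 Ly6C- arrays, 374 without the untreated WT day 2 arrays (all 92 shared), 119 with centred medians, 88 after quantile normalization, 131 of 10480 genes above the probe set median, 90 with mean probe sets, 78 with trend and robust eBayes and 119 with array weights. With untreated WT day 2 as 2 replicate sets, chosen after seeing the data, 155 passed (all 92 shared). Leaving out 1 array gave 27 (without rosiglitazone replicate 1) to 327 (without rosiglitazone replicate 3); without rosiglitazone replicate 2 it was 29. The difference between subsets, 42 genes, gave 195 with only its 16 arrays, 26 with centred medians, and 7 (without rosiglitazone Ly6C+ replicate 1) to 60 on leaving out 1 array.

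Correlations between arrays were taken after subtracting each gene's group mean. Same-numbered rosiglitazone and KO arrays then correlated at 0.209, 0.221 and 0.0345, so the numbers were not taken as pairs. With the replicate block, 46 genes passed over the 8 arrays and 42 over the 14, and for the difference between subsets 498 over 16 arrays. By the same deviations from group means, every rosiglitazone and KO Ly6C- array correlated best with its own number in Ly6C+ except KO replicate 4 (0.0429). This is a hint from the data and not from the design.

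Of the named genes 3, which did not pass, changed sign. Adgre1 was -0.0282 with centred medians, -0.0129 with array weights, -0.022 with the replicate block over 14 arrays, and between -0.027 (without rosiglitazone replicate 1) and 0.0319 (without rosiglitazone replicate 3) on leaving out 1 array, with -0.00255 without KO replicate 3. With that block Pparg was 0.00911 and Igf1 0.00613, and leaving out 1 array put Igf1 between -0.168 and 0.124. Of the other values under an alternative, 1852 kept their side of the threshold, 647 lost it and 37 gained it. The cause of these shifts was not tested.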
